A study of Bos taurus with 24 samples.

Results

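The comparison set the mammary gland against the liver of the same animal in 6 control cows, by RNA-seq of biopsies taken 21 d before expected calving. Its 12 libraries, 6 from mammary and 6 from liver, are all of those labelled control among the 24 of the series, and they were chosen by cow label (19, 21, 23, 24, 25 and 26, each with the suffix C) and paired by cow. The animals were multiparous Holsteins, a dairy breed, dried off 60 d ahead of the calving date. They entered 1 barn 35 d ahead of it and were kept there under a fixed cycle of 16 h light (0500 to 2100, 150 lx) and 8 h dark. Phase-shifted cows were not used. The sources used here do not give the hour at which tissue was taken, and each tissue was counted in its own table, so tissue and table cannot be told apart.

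The liver of a cow makes glucose from propionate and other precursors, detoxifies ammonia to urea, and secretes most of the proteins of blood plasma. The mammary gland of a pregnant, non-lactating cow regrows secretory epithelium within a stroma of fibroblasts, fat, vessels and immune cells, and its secretory cells begin to make milk components as calving nears. A biopsy holds all cell types present, so fewer cells of a type and less RNA per cell cannot be told apart in these data.

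The deposited tables list genes by Ensembl ID only, and 0 of the 27607 IDs could be paired with a symbol in the gene table used here. Genes are therefore described by rank, level and class, 4 are given by ID, and the labelled tissues were not checked against known markers. Reads totalled 5.46 to 13.1 M (mega counts) per library in mammary and 8.18 to 12 M in liver, and the difference in depth within a cow was not past the threshold (mean -1.17 M, exact two-sided paired permutation p = 0.375). Without cow 26, the only cow with the deeper library in mammary, the mammary library was the shallower in 5 of 5 cows (mean -2.36 M, exact permutation p = 0.0625, the smallest that 5 pairs allow). The mammary library of cow 26 stood apart. Its mean rank correlation with the other mammary libraries was 0.859, where the next lowest was 0.941, so results are given with and without this cow.

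Liver RNA was concentrated in few genes and mammary RNA was spread over many. The 100 most abundant genes of each library held 43.4 to 45.0% of liver counts, with a median of 44.3%, and 21.6 to 42.7% of mammary counts, with a median of 25.2%. In all 6 cows the liver value was the higher, although the mammary library of cow 26, at 42.7%, came close to the livers (mean within-cow difference -16.2 percentage points, SD 8.08, n = 6, exact two-sided paired permutation p = 0.03125, adjusted p = 0.04375 over 7 measures). With 6 pairs 0.03125 is the smallest p this test can give. Without cow 26 the 5 mammary libraries lay at 21.6 to 31.0%.

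The same contrast appeared in the number of genes that together held 50% of a library. This number was 160 to 187 in liver, with a median of 172. It was 1095 in the mammary library of cow 23, 1030 in cow 19, 976 in cow 21, 865 in cow 24, 704 in cow 25 and 262 in cow 26. The tissues did not overlap (exact permutation p = 0.03125, adjusted p = 0.04375, n = 6). More genes reached 1 CPM (counts scaled to a library total of 1e6) in mammary, 15022 to 16334 against 13953 to 14261 in liver (exact permutation p = 0.03125, adjusted p = 0.04375, n = 6). That limit depends on how concentrated the reads are, so this count is not separate from the results above. Genes not called between the tissues, in the test below, had medians of 19.4 CPM in mammary and 9.67 CPM in liver. For the 10 most abundant genes the share was 20.2 to 21.3% in liver and 9.35 to 16.3% in 5 mammary libraries, but 26.2% in the mammary library of cow 26, above every liver. That measure did not pass (mean difference -6.70 percentage points, SD 6.65, n = 6, exact permutation p = 0.09375, adjusted p = 0.109).

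**Figure D1:**
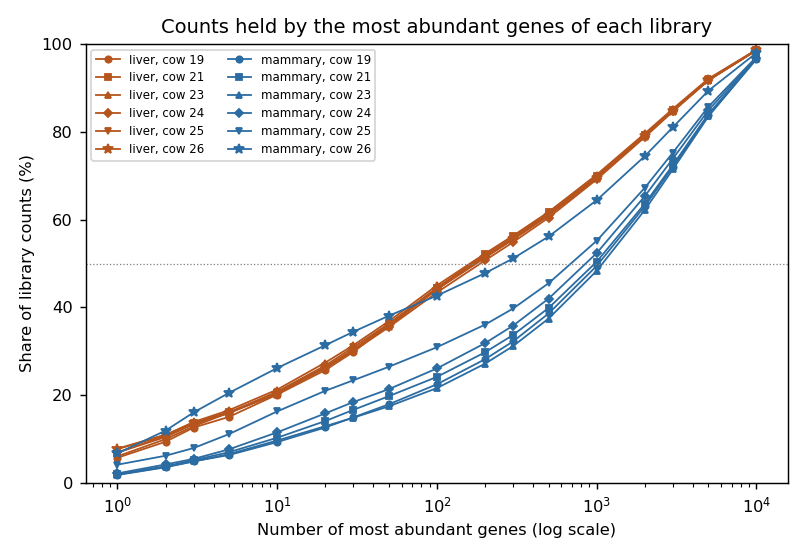
Share of library counts (%) held by the most abundant genes, against their number on a log axis, with 1 curve for each of the 12 libraries (points mark the numbers at which the share was read). The 6 liver curves lie on each other and cross 50% at 160 to 187 genes, 5 mammary curves cross it at 704 to 1095, and that of mammary cow 26 crosses at 262.

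Libraries of liver were also closer to each other than those of mammary. The mean rank correlation of a library with the other 5 of its tissue was 0.977 to 0.980 in liver and 0.859 to 0.951 in mammary. Without cow 26 these values were 0.978 to 0.980 and 0.958 to 0.972, still without overlap, and the mean difference, mammary minus liver, went from -0.0467 to -0.0114. Of the 100 most abundant liver genes of each cow, 77 were among the 100 of all 6 cows. In mammary this held for 40 genes, and for 72 when cow 26 was left out, against 77 in liver without that cow.

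A single gene led every liver library. It held 5.78% of the liver counts of cow 19, 6.94% in cow 21, 7.75% in cow 23, 6.98% in cow 24, 6.11% in cow 25 and 7.85% in cow 26. In the mammary libraries the same gene stood at 27.0 to 72.6 CPM and ranked 4379. The groups were far from overlapping, and the fitted log2 difference, mammary minus liver on counts scaled by trimmed means (TMM), was -11.44 (SE 0.53, edgeR adjusted p = 6.39e-07). The liver gene of rank 2 held 2.95 to 3.89% of liver counts and was also among the more abundant mammary genes, at 140 to 1534 CPM and rank 109 (log2 difference -6.96, SE 0.49, edgeR adjusted p = 6.67e-06). Its mammary level was lowest in cow 26 and highest in cow 23, while the livers stayed within the narrow range given. These are shares of reads, not of molecules: no transcript lengths could be joined to the IDs, so levels are compared for the same gene between tissues, and ranks are by reads.

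Of the 10 leading liver genes, 3 others were at modest levels in mammary, where they ranked 10910 to 13243. These genes, of rank 5, 8 and 9 in liver, held means of 1.13%, 0.905% and 0.817% of liver counts and had mammary means of 9.45, 7.17 and 4.0 CPM. Their log2 differences lay between -11.92 and -11.25. The genes of rank 3, 4, 6, 7 and 10 were held at high levels by both tissues.

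By mean share, mammary was led by genes that were abundant in liver as well. The library of cow 25 was instead led by the mammary gene of rank 3, described below. The genes of rank 1 and 2 in mammary were those of rank 4 and 3 in liver, and 4 of the 10 leading genes of each tissue were the same. The gene of the highest mean share in mammary held 1.57 to 2.22% of counts in 5 cows and 6.79% in cow 26, with a median of 1.82%, against 1.12 to 1.88% in liver. Its place rested on cow 26: without that cow its mean share was 1.84%, below the 1.90% of the gene of rank 2, which exceeded it in cows 21, 23 and 25. The tissues overlapped for the gene of rank 1, which was not called (log2 difference -0.27, SE 0.45, edgeR adjusted p = 0.628). Without cow 26 it was called lower in mammary, at -0.67 (edgeR adjusted p = 0.0103), but on library totals without that cow it was at 0.34. With all 6 cows its direction also turned with the scaling, to 0.69 on library totals (edgeR adjusted p = 0.0942) and 0.04 with upper-quartile scaling. The gene of rank 2 held 1.75 to 2.03% of mammary counts in 5 cows and 5.17% in cow 26, against 2.55 to 3.90% in liver (log2 difference -1.43, SE 0.42, edgeR adjusted p = 0.0172). On library totals it was no longer past the threshold, at -0.48 (edgeR adjusted p = 0.183).

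The mammary gene of rank 3 was almost absent from liver and varied widely between cows. It held 4.20% of the mammary counts of cow 25, 1.07% in cow 24, 0.699% in cow 21, 0.378% in cow 19, 0.161% in cow 23 and 0.00424% in cow 26. In the 6 livers it stood at 1.07 to 2.53 CPM, so that even the mammary library of cow 26, at 42.4 CPM, was above every liver. Its log2 difference was 10.14 (SE 1.33, edgeR adjusted p = 0.000257), and 11.09 without cow 26. Another, of rank 7, was also far higher in mammary, at 0.114 to 2.44% of counts against 31.2 to 102 CPM in liver (log2 difference 5.91, SE 0.76, edgeR adjusted p = 0.000233), with its highest level in cow 26. Rank 9 went to a gene that owed its place to cow 26, with 4.15% of counts there and 0.0372 to 0.253% in the other 5 mammary libraries.

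The most abundant genes of the tissues overlapped in part. Of the 100 leading genes of each tissue, 26 were shared, which is 26% of each list, and 146 of the leading 500 were shared (29.2% of each). Within a single cow, 22 to 28 of the leading 100 were shared. The 26 shared genes held 12.6 to 16.0% of liver counts and 11.7 to 25.6% of mammary counts. Ranked without cow 26, 27 were shared, with 17.1 to 19.0% of liver and 11.7 to 13.8% of mammary counts, so that the tissues no longer overlapped.

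Most liver leaders were far higher in liver than in mammary, and few mammary leaders differed as much. Of the 100 leading liver genes, 92 were called higher in liver, 3 were called lower, and 75 were at least 8-fold higher there. Their median log2 difference, liver minus mammary, was 7.81. Of the 100 leading mammary genes, 58 were called higher in mammary and 21 lower, and 20 were at least 8-fold higher, with a median log2 difference, mammary minus liver, of 0.71. Of all 15122 genes tested, 30.9% were called higher in liver and 7.40% at least 8-fold so. For mammary these shares were 30.7% and 5.65%. Without cow 26 the 8-fold counts for the same lists were 75 and 18. The lists were ranked on these libraries, so these counts describe them and test nothing.

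Over the whole transcriptome most genes differed between the tissues. Of 15122 genes tested in edgeR with the cow as a block, 9309 (61.6%) passed an adjusted p of 0.05. Higher in mammary were 4639 (30.7%) and higher in liver 4670 (30.9%). The direction was the same in all 6 cows for 4020 and 4064 of these. Without cow 26 the calls numbered 10393 (67.2%), 5249 higher in mammary (33.9%) and 5144 in liver (33.2%), and 9072 genes were called both ways.

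The split between the directions depended on the scaling. Relative to the TMM fit, in which the median log2 difference of all genes was 0.03, this median lay 0.30 higher with upper-quartile scaling and 0.93 higher on library totals. The higher-in-mammary share of the calls was 49.8% with TMM, 65.4% with upper quartiles and 82.3% on library totals. On library totals 639 of the genes called in both fits had the opposite direction. Small differences are therefore relative to the bulk of genes, while a shift of this size cannot turn the direction of an 8-fold difference.

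The largest differences were more often in favour of liver. Genes called and at least 8-fold higher in liver numbered 1119 (7.40%), against 855 (5.65%) in mammary. At 64-fold or more the numbers were 507 in liver and 202 in mammary. Between 8- and 64-fold the order was the other way, with 612 in liver and 653 in mammary (638 and 777 without cow 26), so the excess for liver lay in the 64-fold class. Without cow 26 there were 1167 (7.54%) and 1045 (6.75%) at 8-fold, and 529 and 268 at 64-fold. The 8-fold order turned on library totals, with 815 in liver and 1441 in mammary, with upper-quartile scaling (1001 and 1007), with no filter on low counts (1418 and 1468) and in DESeq2 (1447 and 1495). The 64-fold order held in these fits, with 434 and 299, 474 and 230, 578 and 322, and 595 and 263.

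The 64-fold classes also differed in how abundant their genes were. The median gene of the 507 liver genes stood at 121 CPM in liver and 0.334 CPM in mammary. The median gene of the 202 mammary genes stood at 25.6 CPM in mammary and 0.0567 CPM in liver. Genes that were not called, 5813 in number, had medians of 19.4 CPM in mammary and 9.67 CPM in liver.

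**Figure D2:**
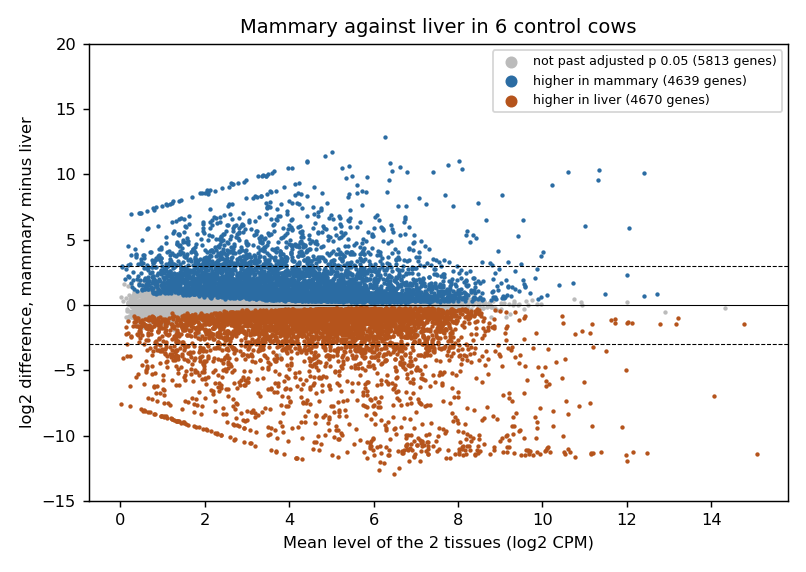
Log2 difference, mammary minus liver on the TMM scale, against the mean level of both tissues (log2 CPM) for the 15122 genes tested, with 1 point per gene, coloured by call, and dashed lines at 8-fold. Abundant genes at the right are spread far below the line for liver and mostly near 0 or modestly above it for mammary, and bands at the outer edges are genes with few or no reads in the other tissue.

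The gene with the largest fitted difference in favour of mammary was ENSBTAG00000004903. It had 0 reads in all 6 livers, and in mammary it stood at 39.8 CPM in cow 26, at 293 CPM in cow 19, with a median of 127 CPM. All mammary libraries were above all livers. Against a floor of 3 counts over the 6 livers it was at least 1404-fold higher in mammary (edgeR adjusted p = 8.19e-05). Folds of the genes given by ID are on the TMM scale and are not ratios of the CPM. ENSBTAG00000031497 also had 0 reads in liver and ran from 1.76 CPM in the mammary library of cow 26 to 140 CPM in cow 24, with a median of 54.9 CPM, at least 585-fold higher in mammary (edgeR adjusted p = 0.000208). Both were lowest in cow 26, and the second varied far more between cows than the first.

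In favour of liver the largest difference was that of ENSBTAG00000003523. Its liver level was 153 to 227 CPM with a median of 177 CPM, and in mammary it had 1 read in all, in cow 26. The ratio on the TMM scale was 15190, with a 95% counting interval from 2726 to 599976 that rests on this single read (edgeR adjusted p = 6.93e-08). ENSBTAG00000038549 was at 118 to 155 CPM in liver, with a median of 144 CPM, and also had 1 read in mammary, in cow 24, a ratio of 11975 with an interval from 2149 to 472984 (edgeR adjusted p = 8.36e-08). Unlike the mammary pair, both varied little between the cows. The intervals cover counting error only.

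Complete restriction to a tissue was more frequent in liver. Genes at 10 CPM or more in all 6 libraries of a tissue and under 1 CPM in all 6 of the other numbered 175 for liver and 55 for mammary. The liver-restricted genes summed to 28040 to 30516 CPM in liver and 24.0 to 39.5 CPM in mammary. The mammary-restricted genes summed to 4341 to 6183 CPM in mammary and 9.07 to 14.2 CPM in liver. Of the 175, 10 had no read in any mammary library, and of the 55, 2 had none in any liver.

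The mammary number rested on cow 26. Without that cow the restricted genes numbered 195 for liver and 174 for mammary. When restricted genes were chosen in 5 cows and read in the sixth, all 175 liver genes met both limits in cow 25, and 175 of 177 did in cow 24, 175 of 183 in cow 21, 175 of 184 in cow 23, 175 of 194 in cow 19 and 175 of 195 in cow 26. In cow 26, 194 of the 195 were at 10 CPM or more in its liver and 19 were at 1 CPM or more in its mammary library, and in cow 19 these numbers were 189 of 194 and 14. For liver genes cow 26 was therefore close to cow 19. Of the 174 mammary genes chosen in the other 5 cows, 67 reached 10 CPM in the mammary library of cow 26 and 5 were under 1 CPM there. In the other cows between 57 of 62 and 58 of 58 did reach 10 CPM. Their lists, chosen with cow 26 included, hold only genes at 10 CPM or more in its mammary library. The shares are therefore over unlike lists.

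The liver-restricted genes summed to more in the mammary library of cow 26 than in the others, and a single gene held most of that sum. Summed over the genes chosen in the other 5 cows, the level in the mammary library was 422 CPM in cow 26, or 1.28% of the level in its liver. In the other cows it was 24.0 to 57.5 CPM, or 0.0836 to 0.178%. The single gene stood at 262 CPM in the mammary library of cow 26, or 62.1% of the sum, and the next at 22.7 CPM. Without the gene of the highest mammary level the sum was 160 CPM in cow 26 (0.492% of the liver level) and 23.0 to 54.4 CPM (0.0802 to 0.168%) in the other cows. Conversely, mammary-restricted genes summed to 80.3 CPM in the liver of cow 26, over a list of 174 genes, and to 12.8 to 18.9 CPM in the other livers, over lists of 58 to 64.

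Abundant liver genes were rarely at 0 in mammary. Of 202 genes with a mean of 500 CPM or more in liver, 92 had a mammary mean under 1% of the liver mean and 52 under 0.1%. None was under 0.02%, and the lowest stood at 0.0490%. The 52 had quartiles of 0.0684 and 0.0839% around a median of 0.0757%, but the limit of 0.1% bounds this spread from above. These values are from means over the cows. In single cows the median of the genes under 0.1% ran from 0.0432% in cow 25 to 0.0838% in cow 24. Genes under 0.02% then numbered from 1 in cows 24 and 26 to 7 in cow 25. The lowest value was 0 in cows 19, 21, 23 and 25. The pair of liver genes given by ID above, which are less abundant, had 1 mammary read each, but they were chosen for the largest differences. Whether the low mammary reads of the leading liver genes come from mammary cells was not tested. Of 162 mammary genes with 500 CPM or more, 8 had a liver mean under 0.1% of the mammary mean, and 3 of them were under 0.02%.

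The classes held very different parts of the reads. To keep the choice of genes apart from the value, each cow was read with classes set in the other 5. Genes called at least 8-fold higher in liver, 1111 to 1167 of them, held 43.9 to 47.5% of liver counts and 1.38 to 2.76% of mammary counts. Genes at least 8-fold higher in mammary, 838 to 1045 of them, held 0.125 to 0.197% of liver counts and 6.08 to 17.3% of mammary counts. The liver-enriched class therefore made up a far larger part of its tissue than the mammary-enriched class, in each of the 6 cows. Genes under 2-fold apart or not called held 50.4 to 66.5% of mammary and 29.4 to 37.0% of liver counts.

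**Figure D3:**
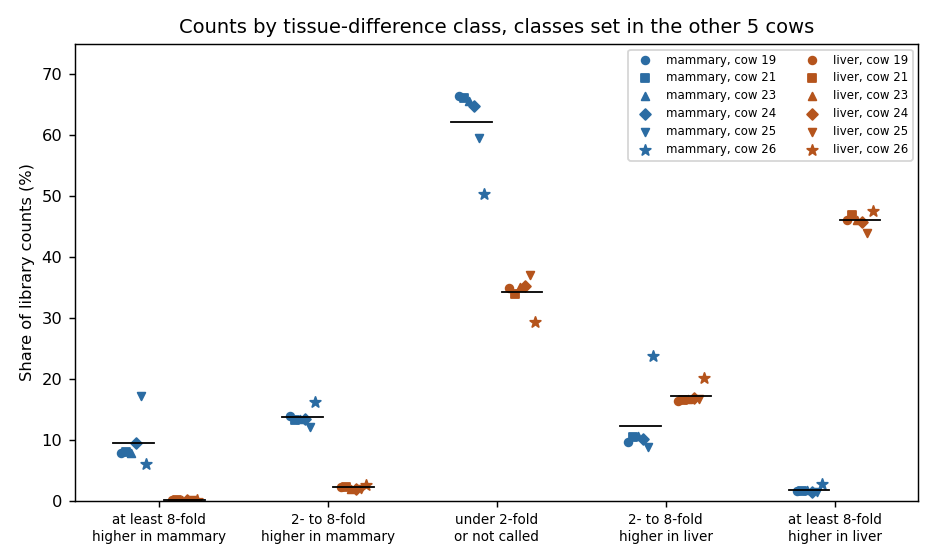
Share of library counts (%) held by genes of each class of tissue difference in the mammary (blue) and liver (orange) library of each of 6 cows, with the classes set in the other 5 cows and black lines at the means. Liver-enriched genes hold 43.9 to 47.5% of liver counts, mammary-enriched genes hold 6.08 to 17.3% of mammary counts, and mammary cows 25 and 26 lie away from the other 4.

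Mammary-enriched genes were unevenly expressed among the cows, and the liver-enriched genes were even. The mammary-enriched class held 7.79 to 9.55% of mammary counts in cows 19, 21, 23 and 24, 17.3% in cow 25 and 6.08% in cow 26. In cows 25 and 26, 4 genes held 50% of the class, where 13 to 30 did in the other cows and 27 to 31 in every liver for the liver class. In cow 26 a single gene held 40.1% of it, and in cow 25 a single gene held 24.3%.

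The direction of the large differences was mostly kept in a cow left out when the classes were set. Only genes that also passed the count filter with all 6 cows were read, with scaling from all 6. For cow 26 this kept 884 of the 1045 mammary genes and 1157 of the 1167 liver genes. The filter thus used the cow that was read and could drop genes low in it. Of the genes at least 8-fold higher in mammary in 5 cows, 99.6 to 100% were higher in mammary in the sixth when it was cow 19, 21, 23, 24 or 25, and 97.3% when it was cow 26. For liver these shares were 99.6 to 100% and 97.6%. The 8-fold size itself was kept by 65.0 to 80.1% of the mammary genes in cows other than 26 and by 51.1% in cow 26. For liver it was kept by 88.9 to 92.1% and by 72.2%. The left-out cow was read as log2 CPM with a prior count of 2, which shrinks differences of genes with few reads. The classes were set on fitted differences, so the 8-fold limit was applied to unlike measures. How much of the loss came from this was not tested.

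The spread between cows was larger in mammary, and much of that rested on cow 26. Over 7497 genes of 10 CPM or more in both tissues, the median SD between cows on the log2 scale was 0.25 in mammary and 0.17 in liver, and 72.7% of genes had the larger SD in mammary. Without cow 26 the medians were 0.17 and 0.16, and the share was 53.8%. Genes with an SD over 1, about a 2-fold change either way, numbered 319 in mammary and 17 in liver with cow 26, and 48 and 21 without it.

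Genes that set mammary apart from liver kept a larger spread even without cow 26. Taken by mean difference alone, whatever the test, the 656 genes at least 8-fold higher in mammary and at 10 CPM or more there had a median SD of 0.43 between the 5 mammary libraries. The 7017 genes under 2-fold apart had 0.17. An SD over 1 was seen for 9.45% of the former and 0.399% of the latter. In liver the 917 genes at least 8-fold higher in liver had a median SD of 0.22, and the 5407 genes under 2-fold apart had 0.16. The mammary libraries were the shallower without cow 26, and the part of counting error in this spread was not tested. Among genes of 100 CPM or more the medians were 0.39 for 146 mammary-enriched genes and 0.12 for 1438 genes under 2-fold apart. For 489 liver-enriched genes in liver the median was 0.19.

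The mammary library of cow 26 differed from the other mammary libraries in many genes of both classes. The 11086 genes compared were at 10 CPM or more in this library or in the median of the other 5. Of these, 598 exceeded that median by 4-fold or more and 427 lay below it by as much. No other library of either tissue had more than 54 above or 55 below, and both of those counts were in the mammary library of cow 23. The mammary library of cow 26 was also the deepest of mammary, at 13.1 M counts, and the part of depth in the result was not tested. The 598 genes held 34.7% of its counts and 7.08 to 8.49% of those of the other 5, while the 427 genes held 0.437% against 3.25 to 14.2%. Both sets were chosen on these same values, so the shares describe them and test nothing.

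**Figure D4:**
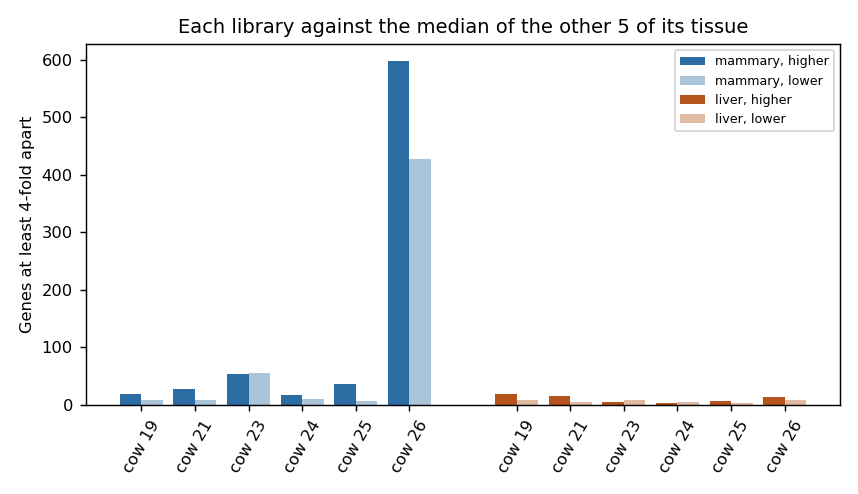
Number of genes at least 4-fold higher (dark bars) or lower (light bars) in each library than the median of the other 5 libraries of its tissue, for 6 mammary (blue) and 6 liver (orange) libraries. Mammary cow 26 has 598 higher and 427 lower, and every other library has at most 55 in a direction.

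Many of the genes lower in that library were genes that set mammary apart from liver in the other 5 cows. With classes set without cow 26, 199 of the 427 genes (46.6%) belonged to the class at least 8-fold higher in mammary, which made up 6.24% of the genes compared. This share was 14.3 to 44.4% in the other 5 mammary libraries, each with classes set without its own cow, from 7 to 55 genes, so cow 26 stood out by the number of genes more than by the share. Over that class the median log2 deviation of cow 26 was -1.24, where the other mammary libraries had -0.18 to 0.24. Among the 598 genes that were higher, 130 (21.7%) belonged to the class at least 8-fold higher in liver, which made up 3.37%. In the other 5 mammary libraries it was 5.88 to 25.0% of 17 to 54 genes. That class had a median log2 deviation of 1.27 in cow 26 and of -0.03 to 0.14 in the other mammary libraries. A gene could enter the comparison through its level in the library read alone. For cow 26, 374 genes of this class were compared, against 269 to 292 for the other mammary libraries, over unlike class lists. The medians therefore describe the genes compared and test nothing. No list of cell types could be read without symbols, so what else the sample held was not tested.

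The extremes lay far outside the range of the other cows. The gene furthest below stood at 1.84 CPM in the mammary library of cow 26 and at 51.8 to 16109 CPM in the other 5. The gene with the largest excess stood at 1008 CPM in cow 26 and at 0.828 to 2.54 CPM in the other 5, and was low in liver also, at 4.10 CPM in cow 26. The next but 1 in excess, by contrast, was a liver gene, with 262 CPM in mammary of cow 26, 0.166 to 0.732 CPM in the other mammary libraries and 536 CPM in the liver of cow 26. The excess in this library thus included genes abundant in liver and genes low in liver.

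The liver of cow 26 was near the other livers in most of these genes. Of the 598 genes higher in its mammary library, 526 were at 1 CPM or more in liver, where their median log2 deviation in cow 26 was 0.08, with 29 at least 2-fold higher and 6 at least 2-fold lower. Of the 427 lower genes, 300 were at 1 CPM or more in liver, with a median of -0.06, 26 at least 2-fold lower and 12 at least 2-fold higher.

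Some genes varied between cows in the same way in both tissues. Among 9747 genes with a mean of 5 CPM or more in each tissue, levels as log2(CPM + 0.5) were centred within each tissue and compared over the 6 cows. The median Pearson correlation between tissues was 0.004, with 104 genes above 0.9 and 70 below -0.9. The points are 6 cows and share their library totals, so these are descriptions with no p. Of 21 genes with an SD over 1 in both tissues, 13 had a positive correlation, 6 of them above 0.9. Without cow 26, 8 genes had such an SD, and 8 of 8 were positive, 6 of them above 0.9, with a median of 0.95.

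The gene with the largest covariance was present in some cows and not read in others. In liver it stood at 14.0 CPM in cow 21, 7.76 in cow 23 and 8.91 in cow 26, and it had 0 reads in cows 19, 24 and 25. In mammary it stood at 27.0 CPM in cow 21, 30.6 in cow 23 and 14.9 in cow 26, at 1.48 CPM in cow 19, from 10 reads, and it had 0 reads in cows 24 and 25. The tissues split the cows alike. The tissue difference of this gene was not called (log2 difference 0.55, edgeR adjusted p = 0.309).

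A second gene was missing in 1 cow. It was at 6.59 to 10.9 CPM in the liver of 5 cows and 36.0 to 50.5 CPM in their mammary gland, and in cow 26 it had 0 reads in liver and 2 in mammary. The fourth gene formed high and low groups, at 57.1 to 61.7 CPM in the livers of cows 19, 24 and 26 and 4.37 to 8.15 CPM in those of cows 21, 23 and 25. In mammary cows 19, 24 and 26 stood at 325, 303 and 140 CPM, and cows 21, 23 and 25 at 26.0, 32.2 and 22.2 CPM. The groups did not overlap in either tissue, and mammary was higher throughout (log2 difference 1.21, edgeR adjusted p = 0.00027). A gene ranked between them was highest in cow 19 in both tissues, at 35.3 CPM in liver and 94.0 CPM in mammary, against at most 4.37 and 17.0 CPM in the other cows. Genes were ranked by this covariance, so the likeness of the tissues is how they were chosen.

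**Figure D5:**
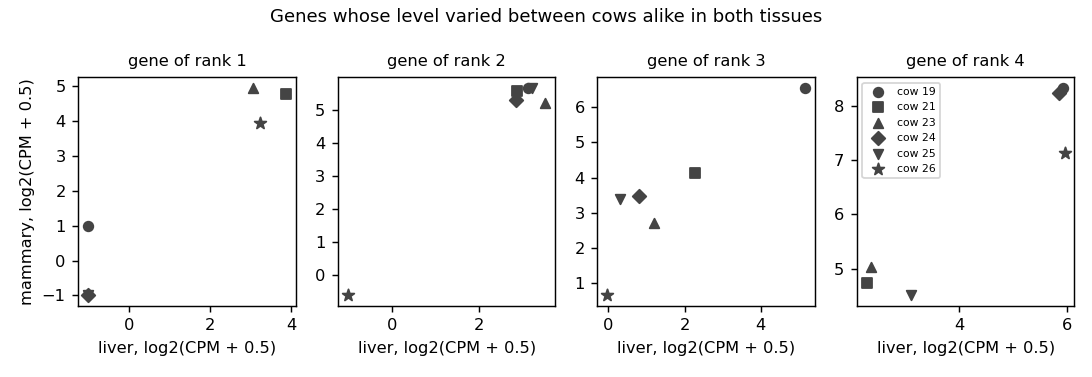
Level in mammary against level in liver, both as log2(CPM + 0.5), for the 4 genes of largest covariance between tissues over 6 cows (symbols are cows, 1 point per cow, with cows 24 and 25 on the same point in the first panel). The gene of rank 1 was at 0 reads in both tissues of cows 24 and 25, that of rank 2 was at or near 0 in cow 26 only, and that of rank 4 forms a high and a low group of 3 cows each.

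Genes of like level in both tissues were also numerous. Of 2069 genes with a mean of 50 CPM or more in both tissues, 642 (31.0%) had a 95% interval of the difference within 1.5-fold either way on the TMM scale. Of the 2069, 1392 were called and 88 were called at 8-fold or more. The gene of smallest difference, -0.00044 on the log2 scale (SE 0.13), stood at 207 to 465 CPM in mammary and 173 to 224 CPM in liver. For the next it was 0.00052 (SE 0.083), with 111 to 215 CPM in mammary and 88.0 to 96.8 CPM in liver, so that groups which do not overlap in CPM were alike once scaled to the bulk of genes.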

How the data were processed

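Ribosome-depleted total RNA of each biopsy was made into libraries and sequenced as read pairs, per the labels' protocols. Per the submitters' processing notes, the authors used Trimmomatic 0.36, STAR 2.5.2b, the build ARS-UCD1.2, featureCounts from Subread 1.5.2 and DESeq2. The deposited raw tables used here hold raw counts (whole reads) by Ensembl ID, on which they were joined. The deposited normalized and regularized log tables were made per tissue and not used. No source used here states the strand setting or annotation release, so reads of overlapping genes or near-identical copies may be divided.

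Of 37063 genes in the RefSeq table (ARS-UCD2.0), 0 carry an Ensembl ID, so none of the 33 lists written by symbol could be applied, no transcript length or sequence was joined, and mitochondrial genes could not be left out. The comparison and its rules were chosen with earlier results of these data known. The main test was edgeR's quasi-likelihood F test (4.0.16, R 4.3.3; robust, TMM, filterByExpr with minimum count 10 and total 15, Benjamini-Hochberg, threshold 0.05) with cow and tissue as terms. The pairs come from the labels: both libraries of a number are from 1 animal. Deviations from the tissue means correlated at 0.051 to 0.181 across genes within a cow and at -0.154 to 0.0755 between cows. Measures of whole libraries were tested by exact two-sided sign flips of within-cow differences (64 assignments). Genes were to be named as the leaders by share, the largest differences, the most alike and the extremes of a library that stands apart. With no symbols, IDs are given for 2 genes in each direction and the others by rank.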

Additional observations from a re-analysis of the deposited data

Results flagged for a closer look

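Of 28 groups of 6 values, 7 had an extreme library whose distance to its neighbour, as a share of the whole range, was past Dixon's 95% critical value, and chance would give about 1.4. The deepest liver library was that of cow 24, at 12 M counts. The mammary library of cow 26 had the lowest mean rank correlation with its tissue, 0.859. In the same library, genes 2- to 8-fold higher in liver held 23.8% of counts and genes at least 8-fold higher in liver held 2.76%. With the classes kept as set without cow 26, the other 5 mammary libraries had 12.4 to 14.5% and 1.41 to 1.83%. The liver of cow 26 had the highest share in genes 2- to 8-fold higher in liver, 20.1%, but with the same 1970 genes the other livers had 21.1 to 23.3%, so its place came from the larger class set without this cow. In the mammary library of cow 25, mammary-enriched genes held 17.3% of counts. The within-cow log2 difference of ENSBTAG00000038549 was smallest in size in cow 24, at -8.97, the cow with the single mammary read of this gene.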

How the results depend on the processing

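Leaving out the pairing of libraries by cow (no replicate block), edgeR called 9534 genes, 8987 of them shared with the paired fit, 4901 higher in mammary and 4633 in liver, with 895 and 1050 at 8-fold or more. The pairing moved no count by over 1.5 times. On library totals 10151 genes were called higher in mammary and 2178 higher in liver, and 1441 were at least 8-fold higher in mammary. The last number was 1468 with no filter on low counts and 1495 in DESeq2, both of which test more genes. Leaving out 1 cow at a time gave 8262 to 10393 calls, 4067 to 5249 higher in mammary and 4195 to 5144 higher in liver, with 838 to 1045 and 1111 to 1167 at 8-fold; the highest value of each came without cow 26. With 5 pairs the exact permutation test cannot go below 0.0625, so no library measure could pass. The mean differences, mammary minus liver, then ran from 1723 to 2023 genes at 1 CPM, from -4.26 to -3.31 percentage points for the leading gene, from -19.2 to -14.8 for the leading 100, from 593 to 763 for the genes holding 50% of counts, and from -0.0572 to -0.0114 for the rank correlation, the last value without cow 26. Detection counted from 10 reads gave a difference of 1436 genes, and 1815 after thinning to 5464882 counts, an alternative chosen after seeing the data. Thinning evens the totals but not the concentration of reads in few genes. The 4 genes given by ID kept direction and call in all 14 alternatives each, with edgeR, DESeq2 or limma-voom adjusted p up to 0.00135. Values per transcript length and without mitochondrial genes were not run.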

Other observations

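Further genes varied between cows alike in both tissues. The gene of rank 6 by covariance was highest in cow 19, at 42.8 CPM in liver and 157 CPM in mammary, next in cow 21, at 12.1 and 63.3 CPM, and lowest in cow 26, at 2.05 and 5.13 CPM. Rank 5 went to a gene higher in liver (log2 difference -2.47, edgeR adjusted p = 0.000443). It stood at 23.3 to 47.9 CPM in the livers of cows 23, 24 and 25 and at 2.65 to 3.37 CPM in those of cows 19, 21 and 26, and its mammary levels, 6.46 to 15.9 CPM and 0.153 to 1.78 CPM, split the cows in the same way. The gene of rank 8 was at 203 to 724 CPM in 5 mammary libraries and at 0.459 CPM, from 6 reads, in that of cow 26, while the liver of cow 26, at 3.97 CPM, was just below the other livers, at 6.42 to 17.0 CPM.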
